A study of Mus musculus with 4 samples.

Results

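The genes described here are 9 that astrocytes use to clear glutamate and GABA, move water, couple to one another and buffer adenosine and acid: Slc1a2, Slc1a3, Glul, Aqp4, Gja1, Gjb6, Adk, Slc6a11 and Slc4a4. They were taken by symbol from the 32285 genes of the count tables, and each symbol matched 1 row. The counts come from single-nucleus RNA sequencing (10x Genomics 3' chemistry) of frozen mouse hippocampus at postnatal week 28, from 2 wild-type (WT) mice and 2 Cyfip2+/R87C knock-in (KI) mice, with 1 library per mouse. The KI mice are heterozygous in the germ line for a disease-linked change in Cyfip2, a subunit of the WAVE actin-regulatory complex, so every cell of the animal carries the allele. Groups rest on the titles and genotype labels, since the protocol text names the R87C allele for every sample, WT included. The treatment label of KI replicate 2 reads R88C, and it was kept with the KI mice by its genotype label. The question is whether the KI genotype changes the level of these genes in astrocytes, and how far astrocyte RNA reaches other nuclei.

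Astrocytes wrap synapses and blood vessels. Their glutamate transporters GLT-1 (Slc1a2) and GLAST (Slc1a3) take up released glutamate, glutamine synthetase (Glul) turns it into glutamine for return to neurons, and GAT-3 (Slc6a11) removes GABA. Aquaporin-4 (Aqp4) is the water channel of the endfeet at vessels, connexin 43 (Gja1) and connexin 30 (Gjb6) form the gap junctions that join astrocytes into a network, adenosine kinase (Adk) clears adenosine, an inhibitor of neuronal firing, and NBCe1 (Slc4a4) carries sodium and bicarbonate. Changes in several of these functions are a familiar theme of epilepsy research, and Cyfip2 variants cause an early-onset epileptic encephalopathy.

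The 4 libraries held 12665 to 16055 barcodes and 73009975 to 80913580 UMIs (unique molecular identifiers, each counting 1 captured RNA molecule). After removal of nuclei with fewer than 500 genes, 55295 of 55640 remained, with a median of 3987 to 4853 UMIs. The nuclear RNA Malat1 took 8.89 and 8.71% of UMIs in WT but 13.7 and 12.1% in KI, and 313 of 55326 distinct barcodes occurred in more than 1 library. A marker gate that used none of the 9 genes assigned 21476 nuclei, 43.2 and 42.5% of the WT libraries but 36.6 and 32.2% of the KI libraries, and left 12 classes with at least 20 nuclei in each library. Class sizes depended on the method: CA1 pyramidal nuclei were 704 and 608 in WT against 209 and 299 in KI by the gate. By clusters in place of the gate they were 2126 and 1484 in WT against 1528 and 1695 in KI. The gated classes are therefore subsets whose make-up can differ between the genotypes. Nothing beyond the 4 mice is replicated, and with 2 against 2 the smallest p that an exact permutation test can give is 0.333, so the tests below come from models fitted across all genes.

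Astrocytes were 531 and 589 nuclei in WT and 205 and 278 in KI, which is 3.32, 4.48, 1.63 and 2.04% of the nuclei kept (exact 95% intervals 3.05 to 3.61, 4.13 to 4.84, 1.42 to 1.87 and 1.81 to 2.3%, for counting error only). The label was checked against genes the gate did not use. A list of 9 held-out astrocyte genes, among them Aldoc, Aldh1l1 and Sox9, summed to 1481, 1539, 1692 and 1394 CPM (a gene's UMIs per 1000000 UMIs of that class and library) in WT replicates 1 and 2 and KI replicates 1 and 2, the order kept below. All 9 gate markers were detected in the astrocytes of each library, and the genes that led the class outside the markers and the 9 genes included Gli3 and Apoe. RNA of other cells was present too. A pan-neuronal list summed to 2688, 2393, 2125 and 3191 CPM in the astrocytes and an oligodendrocyte list to 1160.3, 811, 805 and 1046 CPM, Malat1 took 10.6, 11.3, 14.5 and 12.3% of their UMIs, and mitochondrial RNA 0.258, 0.215, 0.376 and 0.411%. The 9 gate markers also differed by genotype in another class, at 859, 879, 2877 and 2638 CPM in CA1 pyramidal neurons. The held-out list was at 32.9, 38.5, 38.2 and 36 CPM there. The part of these differences in the results below was not tested.

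Astrocytes ranked first of the 12 classes for each of the 9 genes, and for 8 of them all 4 astrocyte values lay above all 4 values of the next class. The exception was Adk, at 261 to 592 CPM in astrocytes and 163 to 419.8 CPM in mural cells, the contractile cells of vessel walls. The mural class held 21 to 32 nuclei per library and was also second for Slc1a2, Aqp4, Gja1, Gjb6 and Slc6a11. Slc1a3 came second in microglia, at 174, 172, 295 and 171 CPM. Glul came second in oligodendrocytes, which also use glutamine synthetase, at 207, 180, 201 and 118 CPM against 543 to 687 CPM in astrocytes. Slc4a4 came second in dentate gyrus (DG) granule neurons, the principal cells of the dentate gyrus, at 365 to 807 CPM, above the third class in every library. Lower in the order, most neighbouring classes overlapped: of the 11 neighbouring pairs, 3 were separate for Slc1a2, 2 each for Slc1a3, Glul and Slc4a4, and 1 each for Gja1, Gjb6, Aqp4, Adk and Slc6a11.

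**Figure D1:**
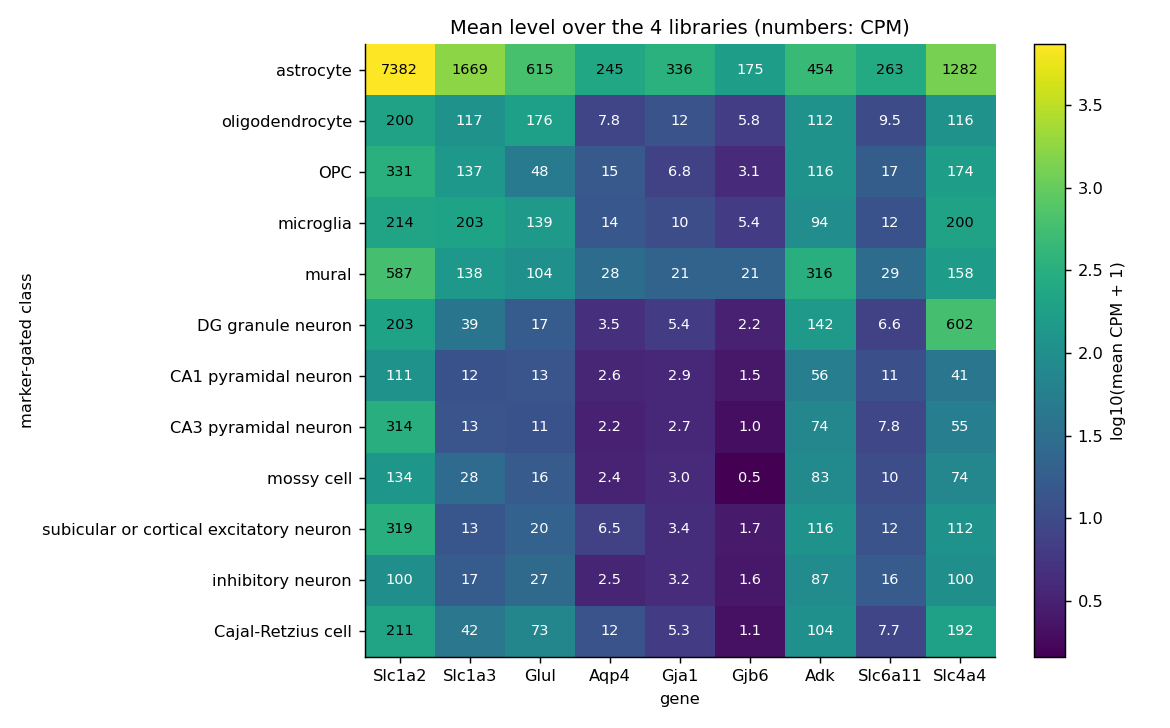
Mean CPM over the 4 libraries of each of the 9 genes (columns) in the 12 marker-gated classes (rows), with colour on a log10 scale. Values compare between classes within a gene, not between genes: the astrocyte row is the highest of each column, and for Slc4a4 the DG granule neurons follow at 602 CPM.

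How closely the genes kept to astrocytes differed among them. Of the UMIs found in gated nuclei, astrocytes held 4.7, 5.89, 3.22 and 3.99% over all genes. For Gja1 the astrocyte share was 75.8, 79.3, 74.2 and 75.6%, for Gjb6 72, 78.8, 82.8 and 77.7%, and for Aqp4 72.5, 74.1, 62.1 and 68.9%. For Slc1a2 it was 61.7, 65.9, 59.6 and 59%. Adk and Slc4a4 were the most widely spread of those given here, with 17.3, 24.6, 17.3 and 10.2% of Adk UMIs and 21.9, 28.8, 30.6 and 21.2% of Slc4a4 UMIs in astrocytes. Over all nuclei kept, gated or not, the astrocyte shares were lower, at 50.5, 54, 45.5 and 41.1% for Gja1, 7.54, 10.3, 5.9 and 3.26% for Adk and 8.16, 10.7, 10.7 and 6.73% for Slc4a4, beside 1.92, 2.31, 0.946 and 1.15% over all genes.

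In droplet data, free RNA from broken cells gives every nucleus a few UMIs of genes it does not express. As a reference for it, the held-out astrocyte genes were followed in 5 well-filled neuron classes, where their median level was 1.66, 1.5, 1.43 and 2.23% of that in astrocytes, with single genes between 0.482 and 6.01%. Not all of them were level over these classes, since Cldn10 was 3.49 to 8.76 times and Slc25a18 1.98 to 5.36 times higher per nucleus in its highest class than in its lowest. Gja1 lay at 0.644 to 1.24% of its astrocyte level over these neurons, Gjb6 at 0.529 to 1.38%, Aqp4 at 1.07 to 1.61% and Slc1a3 at 0.458 to 1.79%. In KI replicate 1 Gja1, Gjb6 and Slc1a3 were below each held-out gene, as was Gjb6 in KI replicate 2, and the other values lay within the range of single held-out genes of the same library. Slc1a3 was not level over the neurons: in WT it was at 54.7 and 47.6 CPM in DG granule neurons against 12.7 and 14.3 CPM in CA1 pyramidal neurons. Slc1a2 lay at 2.25 to 3.09%, Glul at 2.44 to 3.68% and Slc6a11 at 2.33 to 5.34%, each above the held-out median of the same library.

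Slc4a4, at 8.64 to 18.6%, and Adk, at 15.5 to 36.1%, were above every held-out gene. The 5 neuron classes also differed in Slc4a4: the UMIs per nucleus in DG granule neurons exceeded those in CA1 pyramidal neurons 14.1, 11.6, 9.96 and 8.78 times in the 4 libraries, whereas the ratio of highest to lowest class had a median over genes of 1.97 to 2.3. In UMIs per nucleus Slc1a2 was highest in CA3 pyramidal neurons in every library, 4.00 to 6.06 times the lowest class. In CPM it was at 312, 307, 341 and 295 there and at 331, 386, 292 and 266 in subicular or cortical excitatory neurons, so CA3 was higher in KI only.

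In astrocytes, none of the 9 genes passed the test between KI and WT (edgeR quasi-likelihood test, Benjamini-Hochberg adjustment over 11459 genes, threshold 0.05), and none had an unadjusted p below 0.05 or passed with DESeq2. The background was the same, since 0% of all genes tested were called, with 1340 at an unadjusted p below 0.05 and 27 called by DESeq2. By their estimates 5 genes were higher and 4 lower in KI, with a median log2 fold change of 0.07 beside 0.00 over all genes. Each astrocyte value rests on 131 to 12289 UMIs of the gene.

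**Figure D2:**
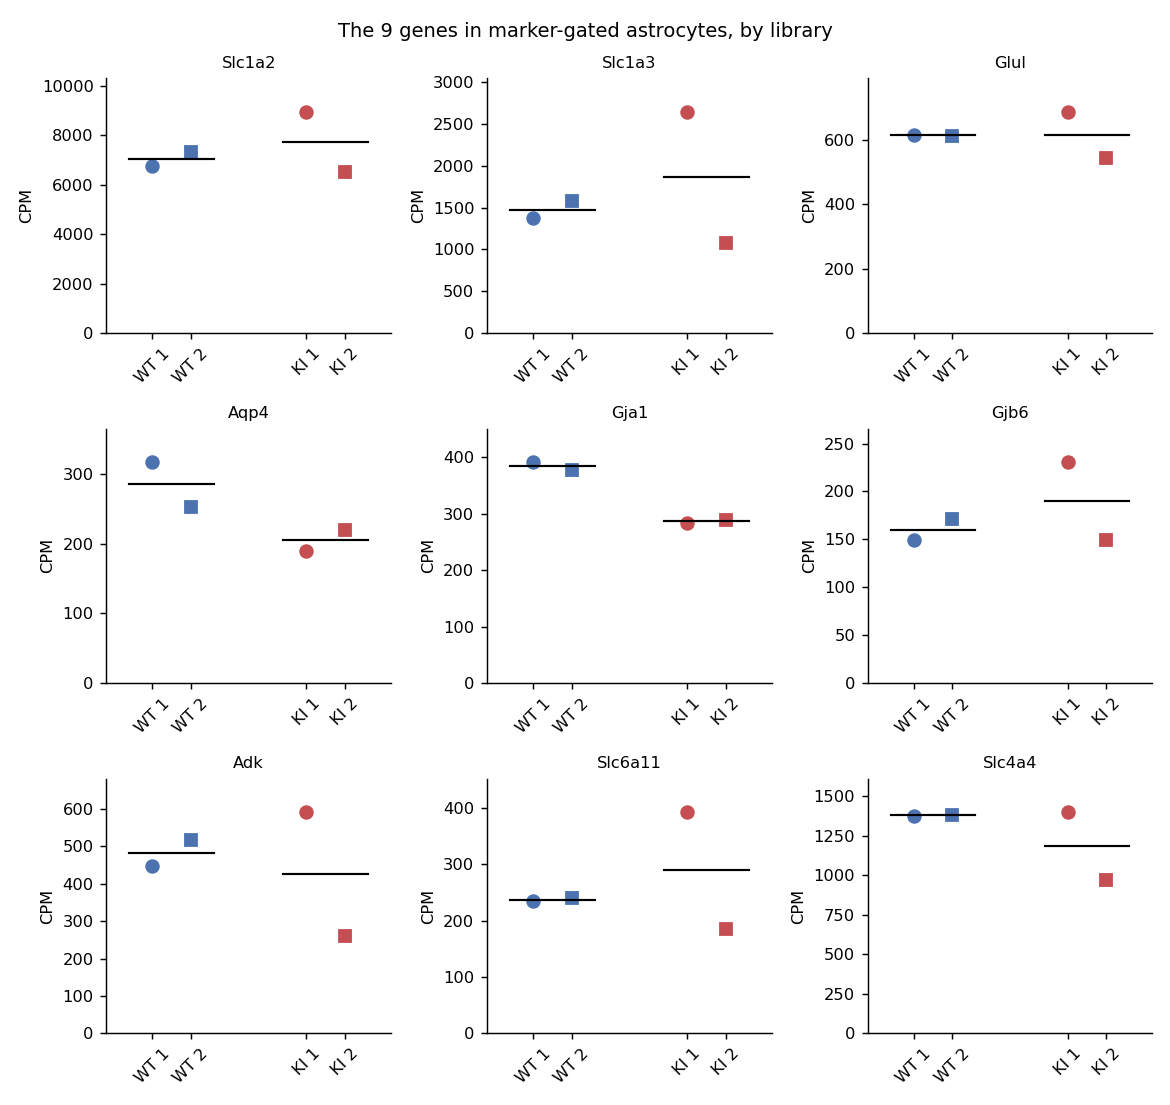
CPM of each gene in marker-gated astrocytes, 1 point per library (circles for replicate 1, squares for replicate 2) with a line at the mean of each genotype. Among the 9 panels, Aqp4 and Gja1 are those in which both KI points lie below both WT points, and in the other 7 panels KI replicate 1 is the highest point and KI replicate 2 is the lowest or level with the lower WT point.

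The glutamate genes were level or led by 1 KI library. Slc1a2 (chr2:102658659-102790784, plus strand, GRCm38) stood at 6758 and 7304 CPM in WT against 8953 and 6512 CPM in KI. The WT values lay between the KI values, and the log2 fold change was 0.20 ± 0.21 (SE, adjusted p = 0.777). Slc1a3 (chr15:8634124-8710764, minus strand) stood at 1374 and 1573 CPM in WT against 2647 and 1079.9 CPM in KI, so that its KI libraries were both the highest and the lowest. Its log2 fold change was 0.41 ± 0.35 (adjusted p = 0.717). Glul (chr1:153899944-153909723, plus strand) was 616, 612, 687 and 543 CPM with a log2 fold change of 0.07 ± 0.19 (adjusted p = 0.939). Slc6a11, the GABA transporter (chr6:114131241-114249952, plus strand), was 234, 241, 393 and 186 CPM. Here too the KI pair enclosed the WT pair, at a log2 fold change of 0.34 ± 0.31 (adjusted p = 0.730).

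The water channel and connexin 43 had both KI values below both WT values, 2 of 9 genes, where 26.3% of all genes tested had that pattern and 17.2% the opposite one, which none of the 9 genes had. Aqp4, on chromosome 18, was at 317 and 252 CPM in WT against 189.9 and 219 CPM in KI, for a log2 fold change of -0.41 ± 0.20 (adjusted p = 0.474). Gja1 (chr10:56377330-56402513, plus strand) was at 392 and 377 CPM in WT against 284 and 289.8 CPM in KI, for a log2 fold change of -0.36 ± 0.18 (adjusted p = 0.486). The partner connexin Gjb6 (chr14:57123303-57133611, minus strand) did not share that order, at 149, 171, 231 and 149 CPM and a log2 fold change of 0.30 ± 0.24 (adjusted p = 0.685).

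Adk (chr14:21052574-21448569, plus strand) was at 448 and 517 CPM in WT against 592 and 261 CPM in KI, and Slc4a4 (chr5:88886818-89239653, plus strand) at 1376 and 1382 CPM in WT against 1401 and 969 CPM in KI. In both genes KI replicate 2 was the lowest library and KI replicate 1 the highest. The log2 fold changes were -0.12 ± 0.33 for Adk (adjusted p = 0.936) and -0.15 ± 0.22 for Slc4a4 (adjusted p = 0.854).

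The 2 KI libraries differed from each other in astrocytes more than the WT libraries did, with a standard deviation between the pair of 0.632 against 0.364 on the log2 scale over genes. Which KI library was kept set the call and the sign. Without KI replicate 2, Slc1a3 passed at a log2 fold change of 0.93 (adjusted p = 6.58e-05), Slc6a11 at 0.81 (adjusted p = 0.000812) and Gjb6 at 0.61 (adjusted p = 0.0341). Without KI replicate 1 the same genes had estimates of -0.41, -0.32 and -0.06, and Adk passed at -0.85 (adjusted p = 0.000448). These fits called 5.97% of all genes without KI replicate 2 and 5.61% without KI replicate 1, and in them the single KI library is assumed to vary as the WT libraries do. Aqp4 and Gja1 kept their sign whichever library was left out, from -0.55 to -0.26 and from -0.37 to -0.35, without passing the test. With astrocytes taken from clusters in place of the gate they were closer to 0, at -0.18 for Aqp4 (adjusted p = 0.759) and -0.10 for Gja1 (adjusted p = 0.870).

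**Figure D3:**
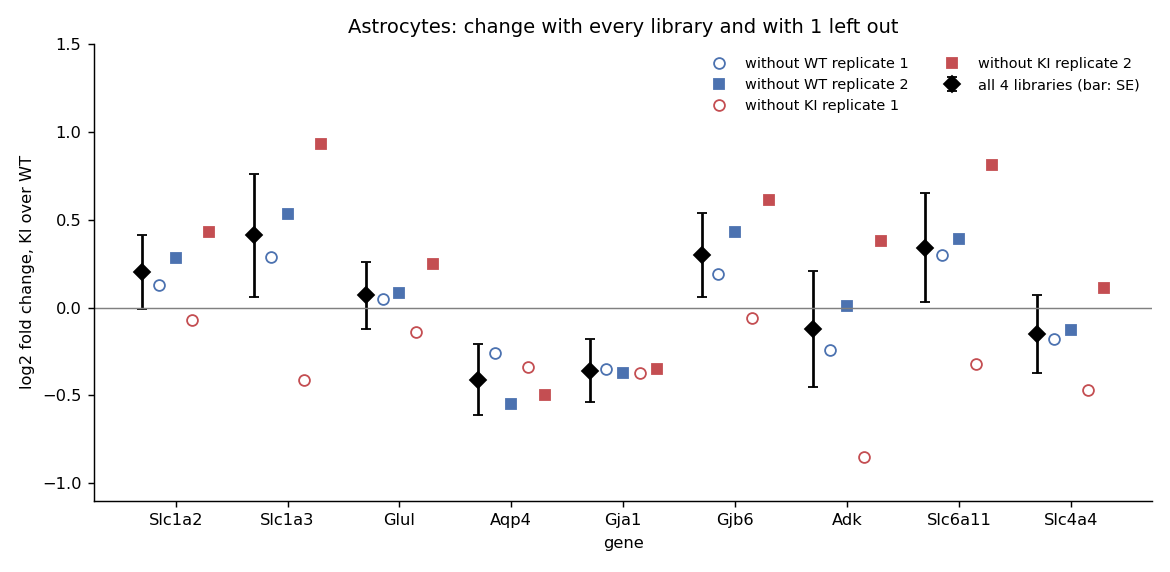
Log2 fold change (KI over WT) of each gene in astrocytes with all 4 libraries (diamonds, bars for the SE) and with each library left out. Slc1a3 moves from -0.41 without KI replicate 1 to 0.93 without KI replicate 2, while Aqp4 and Gja1 stay below 0 in every fit.

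Slc4a4, the sodium bicarbonate cotransporter, fell in DG granule neurons of KI mice. It was at 807 and 789 CPM in WT (4776 and 3530 UMIs in 1245 and 884 nuclei) and 365 and 447 CPM in KI (840 and 1260 UMIs in 464 and 588 nuclei). Both KI libraries were well below both WT libraries, and the log2 fold change was -0.85 ± 0.11 (adjusted p = 0.000541). The call held with each library left out in turn, at -0.96 to -0.73. When the DG class was taken from clusters in place of the marker gate, the log2 fold change was -0.75 and the call was lost (adjusted p = 0.0610).

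Slc1a3 was called in the same neurons, at 54.7 and 47.6 CPM in WT against 21.7 and 30.2 CPM in KI (324, 213, 50 and 85 UMIs). Its log2 fold change was -0.84 ± 0.19 (adjusted p = 0.0149), and the call was lost without WT replicate 1 (-0.74, adjusted p = 0.231), without WT replicate 2 (-0.95, adjusted p = 0.0609) and in the cluster-based class (-0.77, adjusted p = 0.0653). These 2 calls among the 8 genes tested stand beside a background of 12.1% of all genes called in DG granule neurons, with 6.27% of all genes called as lower in KI. Both KI values were below both WT values for 5 of the 8 genes, where 39.3% of all genes were, and the median log2 fold change was -0.51 beside 0.00 over all genes. Slc1a2 had the opposite order, at 180.1 and 191 CPM in WT against 232 and 209 CPM in KI (log2 fold change 0.38 ± 0.12, adjusted p = 0.0668), where 18.8% of all genes had both KI values above. Its estimate was 0.28 to 0.49 with 1 library left out and 0.25 to 0.47 under the other alternatives. It passed under 4 of 14 alternatives. Aqp4 was at 5.24, 4.47, 1.3 and 3.19 CPM and Adk at 161, 145, 121 and 139.8 CPM, and neither passed. In CA3 pyramidal neurons Slc1a3 was also lower in both KI libraries, at 15.4, 16.7, 8 and 10.4 CPM (log2 fold change -0.71 ± 0.24, adjusted p = 0.136). CA1 pyramidal neurons (-0.42) and subicular or cortical excitatory neurons (-0.56) had that order too, without passing. In mossy cells and inhibitory neurons the Slc1a3 values of the genotypes overlapped.

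Free RNA was compared with both calls. The held-out astrocyte genes summed to 37.3, 37.3, 36.5 and 40.5 CPM in DG granule neurons, which is 2.52, 2.42, 2.15 and 2.9% of their level in astrocytes. The 9 astrocyte markers of the gate, on which these nuclei were also selected, summed to 201, 197, 134 and 141 CPM, lower in both KI libraries, and their part in the calls was not tested. Slc4a4 was at 58.6, 57.1, 26 and 46.1% of its astrocyte level. Slc1a3 was at 3.98, 3.03, 0.82 and 2.79%, above the share of the held-out sum in WT replicates 1 and 2. In KI replicates 1 and 2 it was below that share. In each library it lay within the range of single held-out genes, such as Slc25a18 at 8.44, 11.2, 8.06 and 5.9% and Grin2c at 0.995, 0.53, 0.399 and 1.18%. The share of DG nuclei with at least 1 Slc4a4 UMI was 87.5, 88.7, 68.1 and 71.9% at median depths of 4175, 4575, 4589 and 4379 UMIs, against 18.3, 19.9, 10 and 19.1% of CA1 pyramidal neurons at 5345, 6153, 6090 and 5330 UMIs. With every nucleus thinned to 1000 UMIs (4, 0, 4 and 0 shallower DG nuclei left out) the DG shares were 50, 50.7, 25.2 and 31.3% (exact 95% intervals 47.1 to 52.8, 47.3 to 54, 21.3 to 29.4 and 27.6 to 35.2%) and the CA1 shares 3.12, 5.44, 3.37 and 5.02%. These intervals cover counting error within a library and do not compare the genotypes. Malat1 took 8.2, 8.28, 16.6 and 13.9% of UMIs in these neurons, and its part in the difference was not tested.

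**Figure D4:**
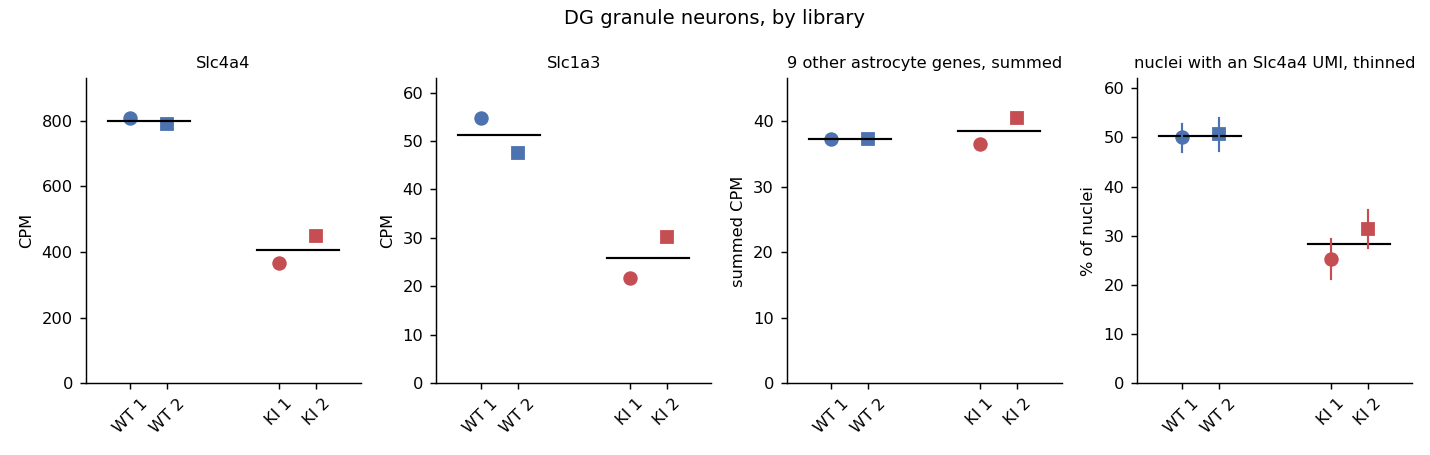
DG granule neurons by library, with a line at the mean of each genotype: Slc4a4 and Slc1a3 in CPM, the summed CPM of the 9 held-out astrocyte genes, and the percent of nuclei with an Slc4a4 UMI after thinning to 1000 UMIs (bars, exact 95% intervals). Slc4a4 is at 807 and 789 CPM in WT against 365 and 447 CPM in KI, and the held-out sum is between 36.5 and 40.5 CPM. The astrocyte markers of the gate, not drawn, were at 201, 197, 134 and 141 CPM.

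The mural class gave the other pair of calls, among 4 genes tested and with 1.88% of all genes called. Slc1a2 was at 901 and 975 CPM in WT against 221 and 252 CPM in KI (34, 65, 17 and 17 UMIs), a log2 fold change of -1.97 ± 0.45 (adjusted p = 0.00862). Slc4a4 was at 186 and 359.9 CPM in WT against 26 and 59.3 CPM in KI, on 7, 24, 2 and 4 UMIs (log2 fold change -2.69 ± 0.66, adjusted p = 0.0178). The low-count filter keeps a gene with enough counts in a single genotype. Slc4a4 was kept here through its WT values only, so this call was open to a fall but hardly to a rise. The held-out astrocyte genes moved along in these nuclei, at 345, 209.9, 77.9 and 44.5 CPM or 23.3, 13.6, 4.61 and 3.19% of their astrocyte sum. Other lists did not share that order in the mural nuclei: the astrocyte markers of the gate summed to 795, 1754, 1299 and 1704 CPM and the pan-neuronal list to 3314, 3224, 4949 and 4431 CPM. The part of these lists in both calls was not tested. Both calls were lost when nuclei needed at least 1000 genes and without KI replicate 1, where Slc1a2 was at -1.40 and -1.74. The call of Slc1a2 was also lost without WT replicate 2, at -1.87, and with mural cells taken from clusters it was at -0.35. In all it was lost under 7 of 14 alternatives, and that of Slc4a4 under 3 of 8, with no value under 6 more.

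In the remaining 9 classes none of the genes passed with edgeR or DESeq2. Over all 11 classes other than astrocytes, 76 of 99 pairs of gene and class held enough counts to be tested, 4 were called, 16 had an unadjusted p below 0.05, 64 had estimates below 0 and 12 above. Over all genes tested in these classes, 15.1% had an unadjusted p below 0.05, and the median log2 fold change was between -0.01 and 0.02. Some pairs lower in KI met the count filter through WT alone, such as Slc4a4 in mural cells. Gja1 in oligodendrocyte precursors, at 10.1, 10.8, 2.63 and 3.5 CPM, was another. The counts of estimates in each direction depend in part on that filter, which applied to all genes. The backgrounds were 0.0608% of genes called in oligodendrocytes, 0.174% in oligodendrocyte precursors (OPCs), 0.0257% in microglia, 1.5% in CA1 and 3.32% in CA3 pyramidal neurons, 0.854% in mossy cells, 2.14% in inhibitory neurons and 0.0382% in Cajal-Retzius cells. In subicular or cortical excitatory neurons 0% of genes were called by edgeR, with 1334 at an unadjusted p below 0.05 and 8 called by DESeq2. The sum of 4 calls rested on single libraries: it was 1 without WT replicate 2 and 23 without KI replicate 2. The share of genes called, summed over these classes, went from 2.33% with all libraries to 1.1 and 16.7% in the same fits.

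Oligodendrocytes held small amounts of the endfoot and junction genes. Aqp4 was at 13.6, 8.75, 5 and 3.68 CPM there (log2 fold change -1.29 ± 0.42, adjusted p = 0.347), Gja1 at 16.5, 15.3, 8.67 and 7.35 CPM (-0.91 ± 0.31, adjusted p = 0.368) and Gjb6 at 6.28, 9.85, 3.33 and 3.68 CPM (-1.08 ± 0.45, adjusted p = 0.452). None of the 3 passed. The held-out astrocyte genes summed to 83.7, 96.8, 82 and 84.2 CPM in the same nuclei. Lower estimates were not particular to oligodendrocytes, since Gja1 and Aqp4 had negative log2 fold changes in every class tested. For Gja1 they reached -1.62 in OPCs (adjusted p = 0.295) and -1.41 in CA1 pyramidal neurons (adjusted p = 0.248). For Aqp4 they ran from -1.29 in oligodendrocytes to -0.06 in subicular or cortical excitatory neurons.

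Summed over all nuclei, each of the 9 genes had both KI values below both WT values, where 34.7% of all genes had that pattern and 26.9% its opposite. In such a sum, fewer cells of a type and less RNA per cell cannot be told apart. Besides astrocytes, DG granule neurons, the second class for Slc4a4, were a smaller share of the nuclei in KI, at 7.79, 6.72, 3.7 and 4.32% by the gate and 27, 25.1, 19.7 and 16.4% by clusters. The median log2 fold change was -0.45 beside 0.01 over all genes. Slc4a4 passed, at 324 and 297 CPM in WT against 123 and 166 CPM in KI (log2 fold change -1.05 ± 0.14, adjusted p = 0.0460), 1 call of 9 where 0.771% of all genes were called and 0.324% as lower in KI. Aqp4 was at 13.0, 12.2, 5.16 and 6.61 CPM (-1.05 ± 0.16, adjusted p = 0.0585) and Gja1 at 14.9, 16.1, 5.91 and 8.13 CPM (-1.09 ± 0.17, adjusted p = 0.0585). Slc1a2 was at 339, 407, 268 and 258 CPM (-0.45 ± 0.11, adjusted p = 0.103) and Gjb6 at 6.35, 7.77, 4.31 and 4.32 CPM (-0.66 ± 0.18, adjusted p = 0.115). For the other 4 genes the log2 fold change was between -0.42, for Slc6a11, and -0.23, for Glul. DESeq2 called 5 of the 9, where it called 8.57% of all genes. By edgeR 5 were called without KI replicate 1, beside 5.99% of all genes, and 5 when KI replicate 2 was left out, beside 33.5%.

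An alternative chosen after seeing the data left out the nuclei of the astrocyte cluster, 1982 in all. Slc1a2 was then at -0.15 (adjusted p = 0.421), Slc1a3 at -0.15 and Glul at 0.03. Slc4a4 stayed at -1.06 ± 0.16 but no longer passed (adjusted p = 0.0564). Aqp4 and Gja1 were at -0.72 (adjusted p = 0.132) and -0.82 (adjusted p = 0.118), which is RNA counted outside that cluster.

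**Figure D5:**
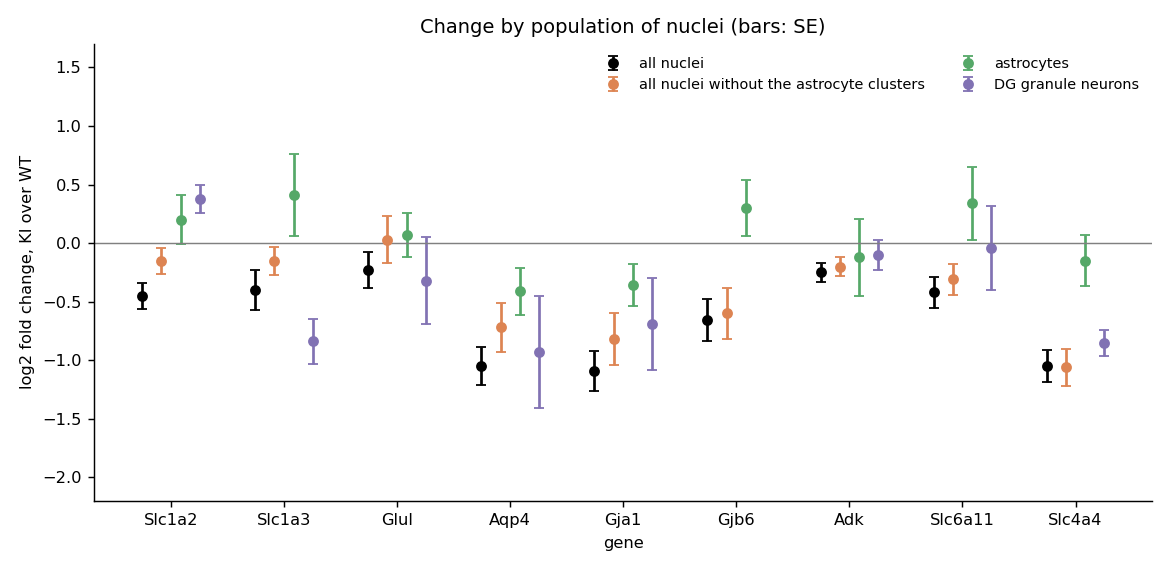
Log2 fold change (KI over WT, bars for the SE) of each gene over all nuclei, over nuclei outside the astrocyte cluster, in marker-gated astrocytes and in DG granule neurons, where Gjb6 was not tested. Slc4a4 is at -1.05, -1.06 and -0.85 in the all-nuclei, remaining-nuclei and DG sums and at -0.15 in astrocytes, and Slc1a2 goes from -0.45 over all nuclei to 0.20 in astrocytes.

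Whether the genotype effect in astrocytes differed from that in another class was tested as an interaction in 5 class pairs, giving 45 terms. None passed. The smallest adjusted p was 0.206, and 10 terms had an unadjusted p below 0.05, where 8.86% of all terms fitted in these pairs did. That was Slc1a3 against DG granule neurons, where the astrocyte effect exceeded the DG effect by 1.08 ± 0.37 on the log2 scale, with 1.95% of all genes called in that pair. For Slc4a4 the same difference was 0.66 ± 0.25 (adjusted p = 0.254), so the fall in DG granule neurons was not shown to differ from the change in astrocytes. Gjb6 against oligodendrocytes gave the widest gap of those named here, 1.40 ± 0.40 (adjusted p = 0.409), in a pair where 0% of genes were called and 975 had an unadjusted p below 0.05. The other backgrounds were 0.206% for OPCs, 0.187% for CA1 pyramidal neurons and 0.411% for inhibitory neurons.

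Other genes of the same pathways were followed in astrocytes as 6 lists with 48 genes, of which 36 were tested and none was called by edgeR, as for 0% of all genes. With DESeq2 1 was called, Slc4a10, and by edgeR 5 of the 36 had an unadjusted p below 0.05, each higher in KI. Over all genes tested in astrocytes, 1340 of 11459 had an unadjusted p below 0.05, in either direction. Leaving out KI replicate 1 gave 3 calls by edgeR, and leaving out KI replicate 2 gave 6, in fits that called 5.61 and 5.97% of all genes. The glutamate and glutamine list had 5 of 10 tested genes higher and 5 lower (median log2 fold change 0.00), the water channel anchoring list 3 and 3 (0.00), the junction and potassium list 4 and 3 (0.25), the GABA list 2 and 2 (0.17), the adenosine list 3 and 0 (0.08) and the bicarbonate list 5 and 1 (0.47). Slc4a10, a sodium-driven bicarbonate transporter best known from neurons, was at 129 and 138 CPM in WT against 269.7 and 271 CPM in KI (log2 fold change 1.08 ± 0.18, adjusted p = 0.112). The pan-neuronal list given above was highest in KI replicate 2 and lowest in KI replicate 1, and 1 of its 7 genes had both KI values above both WT values, Snap25 at 358, 392, 558 and 533 CPM. Markers of other cells with that order in astrocytes included Nxph1 of inhibitory neurons, at 38.4, 38.6, 75.4 and 73 CPM. It was 1 of 8 genes of its list, of which 4 had both KI values below both WT values. That list summed to 475, 374, 345 and 331 CPM. Lhfpl3 of OPCs, at 39.7, 35.1, 73.9 and 119 CPM, was 1 of 3 such genes among 7, with 0 in the opposite order. The part of these markers in the Slc4a10 values was not tested. Kcnj10, the Kir4.1 potassium channel, was at 70.7, 69.5, 159 and 101 CPM (0.94 ± 0.24, adjusted p = 0.201), and its log2 fold change was 0.56 without KI replicate 1 (adjusted p = 0.115) and 1.27 without KI replicate 2 (adjusted p = 3.2e-06). In both genes the KI libraries were above both WT libraries.

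The genes whose levels followed each of the 9 most closely were found by Pearson correlation over 48 sums (12 classes in 4 libraries, which share depth and mice, so the values are a description). Gja1 and Gjb6 were each other's closest gene, at r = 0.901, with Acsl3, a fatty acid activating enzyme, next for both at 0.900 and 0.899. Aqp4 was followed by Dio2, the deiodinase that activates thyroid hormone, at 0.879, by Gjb6 at 0.867 and by Slc1a2 at 0.856. Slc6a11 was followed by Gja1 at 0.855 and Slc1a2 by Nat8f6 and Acsl3, both at 0.884. Slc1a3 and Glul were closest to Apoe, the main lipid carrier made by astrocytes and microglia, at 0.933 and 0.950, and then to Cd81 at 0.906 and 0.934. Adk was closest to Sparcl1 at 0.864. Slc4a4 was closest to the channel gene Trpm3 at 0.897, Tspan7 at 0.876 and Prkd1 at 0.875. Slc1a2, Slc1a3, Glul, Adk and Slc4a4 had none of the other 8 genes among their first 3.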

How the data were processed

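Per the file headers, the deposited tables hold UMI counts per gene and nucleus from Cell Ranger 7.0.1, which the authors did not normalize further; the submitters' processing notes name mm10. Gene positions are from GENCODE M21 (GRCm38). Nuclei with fewer than 500 genes or over 5% mitochondrial UMIs were removed (345 nuclei). A nucleus joined a class when the best of 17 marker lists had at least 3 markers detected, a mean z-score of 0.75 and a lead of 0.5 over the next list; that lead stood in for doublet removal, and a Scrublet limit of 0.25 was an alternative. The scoring rule was set after the files were opened. Counts were summed per library and class and tested with edgeR 4.0.16 (TMM, filterByExpr, quasi-likelihood, R 4.3.3); DESeq2 1.42.0 was an alternative. Clusters came from scanpy 1.11.5. Scripts were tested on simulated data. The genes and lists were chosen with earlier results of these data known. Partner genes were named when their mean was at least 10 CPM and their unadjusted p below 0.05, up to 3 per direction; a gene that met this rule is not reported here.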

Additional observations from a re-analysis of the deposited data

Results flagged for a closer look

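The genotype difference of Slc1a2 ran in opposite directions in a pair of classes. In DG granule neurons both KI libraries were above both WT libraries, in mural cells both were below, and the log2 fold changes differed by 2.35. This difference was not tested, and the mural values rest on 17 to 65 UMIs per library.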

How the results depend on the processing

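With 2 mice per genotype the tests see large changes only: in data simulated on the astrocyte sums, 5.97% of genes changed 1.5-fold and 64.2% of genes changed 2-fold were recovered. The simulation changed well-counted genes only and gave both genotypes the same spread. In the data the KI pair spread more than the WT pair (0.632 against 0.364), so these shares need not hold for the tests above. For the 9 genes in astrocytes the count called was 0 under every alternative that kept all libraries, and 0 to 3 when 1 library was left out. In the other classes the 4 calls became 2 with no low-count filter, with thinned counts, with at least 1000 genes per nucleus and with 1 more marker required, 5 with the held-out astrocyte list as the gate, and 1 to 23 when 1 library was left out. Over all nuclei the 1 call became 5 with DESeq2, 3 with no low-count filter, 0 without the astrocyte cluster and 1 to 5 when 1 library was left out. The interaction count rose from 0 to 1 with no low-count filter and to 1 with the held-out astrocyte list as the gate. Where the share of all genes called in a fit is not given, such a count does not show a change particular to these genes. The partner count rose from 0 to 1 with DESeq2, to 2 with no low-count filter and to between 0 and 6 when 1 library was left out.

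Leaving out 1 library at a time moved the astrocyte log2 fold change from -0.07 to 0.43 for Slc1a2, from -0.41 to 0.93 for Slc1a3, from -0.14 to 0.25 for Glul, from -0.06 to 0.61 for Gjb6, from -0.85 to 0.38 for Adk, from -0.32 to 0.81 for Slc6a11 and from -0.47 to 0.11 for Slc4a4. With clusters in place of the gate Adk was at 0.06 and Slc4a4 at 0.02 in astrocytes, and without the astrocyte cluster Glul was at 0.03 over all nuclei. The cause of these changes was not tested. Genes called in astrocytes were 0 with all libraries and edgeR, 27 with DESeq2, 320 with no low-count filter and 17 to 758 without 1 library. Over all nuclei they were 169, with 1878 by DESeq2 and 98 to 7513 without 1 library, and in DG granule neurons 1583, with 900 by DESeq2 and 487 to 3923 without 1 library.

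The deviations of libraries with the same replicate number had a correlation of -0.0999 in astrocytes and 0.0266 over all nuclei. With 2 mice per genotype this is the exact reverse of the correlation between differently numbered libraries. It therefore cannot show whether the numbers mark a shared preparation. With the replicate block the members called over all nuclei rose to 4, and the counts in astrocytes, in other classes and among partner genes did not change, at 0, 4 and 0. Over all nuclei, the alternatives that kept all libraries called 164 to 1878 of all genes. The rise to 4 is therefore not shown to be particular to these genes.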
